A study of Rattus norvegicus with 12 samples.

Results

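The genes described here are the enzymes that turn sugar carbon into fatty acids and triglycerides in the liver, with 3 regulators or remodelling enzymes of the same pathway: Srebf1, Lpin1 and Pnpla3. A gene was taken when a probe set of the array carried its symbol and no other, and 9 of the 10 listed genes were found in this way: Srebf1, Pklr, Acly, Acaca, Elovl6, Scd, Gpam, Lpin1 and Pnpla3. Fasn, the fatty acid synthase, had no probe set with that symbol alone and is not analysed here. Each of the 9 genes had 1 such probe set, among 13215 genes with 1 symbol and 19418 probe sets in all. The list was chosen by the intensities of these genes on these same 12 arrays, in the comparisons below, so its values are a description of the chosen genes.

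Livers of Sprague Dawley rats were profiled after 7 days on 1 of 3 diets, with 4 arrays labelled as biological replicates in each group. The groups were NO-naproxen at 550 mg/kg of diet, naproxen at 400 mg/kg of diet, and the same period on control diet with no drug. Naproxen is a nonsteroidal anti-inflammatory drug that inhibits the cyclooxygenases, and NO-naproxen is naproxen joined to a group that releases nitric oxide. The 2 doses differ by weight, and all rats were housed individually with free access to food and water. Levels are given as linear intensities of 1 probe set per gene, and fold changes were taken on the log2(intensity + 16) scale, which understates the change of dim genes.

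In the liver, glucose and insulin after a meal raise the synthesis of fatty acids through the transcription factors SREBP-1, the product of Srebf1, and ChREBP, while fasting lowers it. Citrate carbon is turned into acetyl-CoA, malonyl-CoA and palmitate in turn, then elongated, desaturated and joined to glycerol phosphate. Lipin 1, the product of Lpin1, makes the diacylglycerol of that last branch and also acts in the nucleus as a partner of PGC-1 alpha, and its gene is known to rise in liver during fasting and with glucocorticoids.

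RefSeq's table of promoters (build GRCr8) held windows for 7 of the 10 genes, Srebf1 with 2 start sites. The 250 bases before the start are shown for the 3 genes whose levels the results turn on, 5′ to 3′ on the strand of the gene, with all motif matches in capitals. The letters searched on both strands were TCACNCCAC (a sterol regulatory element), TCACCCGAG (a variant of it, chosen after the windows were read), CACGTG (an E-box), CCAAT (the NF-Y box) and GGGCGG (the Sp1 box). The windows lie at chr10:45519011-45519260 on the minus strand for the downstream start of Srebf1, chr7:117173278-117173527 on the plus strand for Pnpla3 and chr6:45108943-45109192 on the minus strand for Lpin1.
Srebf1 downstream start: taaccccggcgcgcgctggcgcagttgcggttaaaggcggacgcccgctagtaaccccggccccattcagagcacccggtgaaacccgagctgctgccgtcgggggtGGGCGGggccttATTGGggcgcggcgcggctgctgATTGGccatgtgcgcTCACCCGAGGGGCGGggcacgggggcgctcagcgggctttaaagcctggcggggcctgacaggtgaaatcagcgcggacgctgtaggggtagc
Pnpla3: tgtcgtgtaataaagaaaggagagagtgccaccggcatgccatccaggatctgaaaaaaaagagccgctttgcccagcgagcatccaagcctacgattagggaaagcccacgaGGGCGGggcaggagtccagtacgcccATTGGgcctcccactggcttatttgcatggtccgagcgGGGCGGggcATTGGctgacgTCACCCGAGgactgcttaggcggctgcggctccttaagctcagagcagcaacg
Lpin1: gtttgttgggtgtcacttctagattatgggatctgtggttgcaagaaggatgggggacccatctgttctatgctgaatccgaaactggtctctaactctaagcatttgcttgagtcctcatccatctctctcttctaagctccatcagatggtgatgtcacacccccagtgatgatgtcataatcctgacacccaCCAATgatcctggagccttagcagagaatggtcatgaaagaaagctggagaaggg

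The Srebf1 and Pnpla3 windows both held TCACCCGAG, starting 93 and 53 bases before the start, which was present in 29 of 33469 windows of this length (0.0866%). These letters were chosen after the windows were read, so nothing is read from that share. Both windows also held 2 CCAAT and 2 GGGCGG matches, found in 34.0% and 30.5% of all windows. None of these overlapped TCACCCGAG, which in Srebf1 is followed at once by a GGGCGG. TCACCCGAG was absent from the window of the upstream Srebf1 start and from those of Pklr, Acly, Scd, Gpam and Lpin1. The Lpin1 window held 1 CCAAT match and none of the other letters searched. TCACNCCAC (0.974% of all windows) and CACGTG (5.59%) were in none of these 3 windows. Such matches describe letters in a window and are not binding sites. The array's annotation gives the gene alone, so transcripts from the 2 Srebf1 starts are not told apart in the values below.

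The 9 genes were all well above the range of probe sets for olfactory and vomeronasal receptors, genes that liver does not use, whose 95th percentile was 6.44 on the log2 scale, and their means ran between 9.28 for Pnpla3 and 13.06 for Scd. Hepatocyte markers were bright on every array, with summed intensities of 6 measured markers between 53110 and 60082 with NO-naproxen, 51406 and 56674 with naproxen, and 53526 and 59470 in controls. Among these markers Hnf4a, a hepatocyte transcription factor, was lower in all 4 naproxen livers (2699 to 3013) than in all 4 controls (3264 to 4436). That was so for 2.40% of all probe sets. The NO-naproxen livers (2771 to 4142) overlapped both. The log2 fold changes of Hnf4a were -0.05 ± 0.17 with NO-naproxen and -0.33 ± 0.17 with naproxen (SE). Of 5 measured adipocyte markers, Adipoq, Fabp4 and Lep lay within the olfactory receptor range, and the 5 together summed to between 498 and 633 with NO-naproxen, 467 and 727 with naproxen, and 519 and 635 in controls. Kupffer cell markers (5 measured, none within that range) summed to between 3123 and 5045 with NO-naproxen, 3070 and 4470 with naproxen, and 2786 and 3969 in controls. Within that sum Vsig4 had log2 fold changes over control of 0.44 ± 0.19 with NO-naproxen and 0.42 ± 0.19 with naproxen. Csf1r had 0.50 ± 0.21 and 0.35 ± 0.21, and Clec4f 0.17 ± 0.18 and 0.07 ± 0.18. Marco had 0.28 ± 0.29 and 0.31 ± 0.29, and Cd68 -0.09 ± 0.25 and 0.23 ± 0.25. Clec4g, the 1 measured endothelial marker, stood at 0.06 ± 0.22 with NO-naproxen and 0.54 ± 0.22 with naproxen. Its NO-naproxen arrays (124 to 187) all lay below its naproxen arrays (195 to 237), by -0.48 ± 0.22. Such a separation in this direction was found for 102 of all 19418 probe sets. Of 4 measured stellate cell markers, Dcn stood at 0.18 ± 0.24 and 0.52 ± 0.24, and Lrat at 0.41 ± 0.22 and 0.23 ± 0.22. Reln stood at 0.33 ± 0.24 and 0.25 ± 0.24, and Des at -0.25 ± 0.19 and 0.13 ± 0.19. Of 2 measured cholangiocyte markers, Epcam, within the olfactory receptor range, stood at 0.32 ± 0.17 and 0.46 ± 0.17. Krt19, above that range, stood at -0.23 ± 0.16 and -0.04 ± 0.16. The part of these markers in the results below was not tested. Fewer cells of a type and less RNA per cell cannot be told apart in whole liver. Array medians lay between 89.8 and 118, and the interquartile range of an array's log2 values between 1.94 and 2.62, narrowest in control replicates 3 and 4. It ran between 1.94 and 2.37 in controls and between 2.07 and 2.62 in drug arrays, so it partly follows diet. Values without control replicates 3 and 4 rest on control replicates 1 and 2 alone, and replicate 1 weighs more in them.

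Control replicate 1 differed from the other controls for Srebf1, Pnpla3 and Lpin1. The check for an outlying array, given further below, did not flag it for these genes. Its array weight was 1.83, where all arrays ran between 0.48 and 2.19. Control replicate 1 had the lowest Srebf1 of all 12 arrays, the lowest Pnpla3 of the controls and a Lpin1 level among those of the drug-fed rats. It is labelled a control like the others, and the values of these genes over control are given with and without it. It was picked out from these same values, and the share of all probe sets that separate without it was not counted. Separations seen only without it are therefore descriptions.

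**Figure D1:**
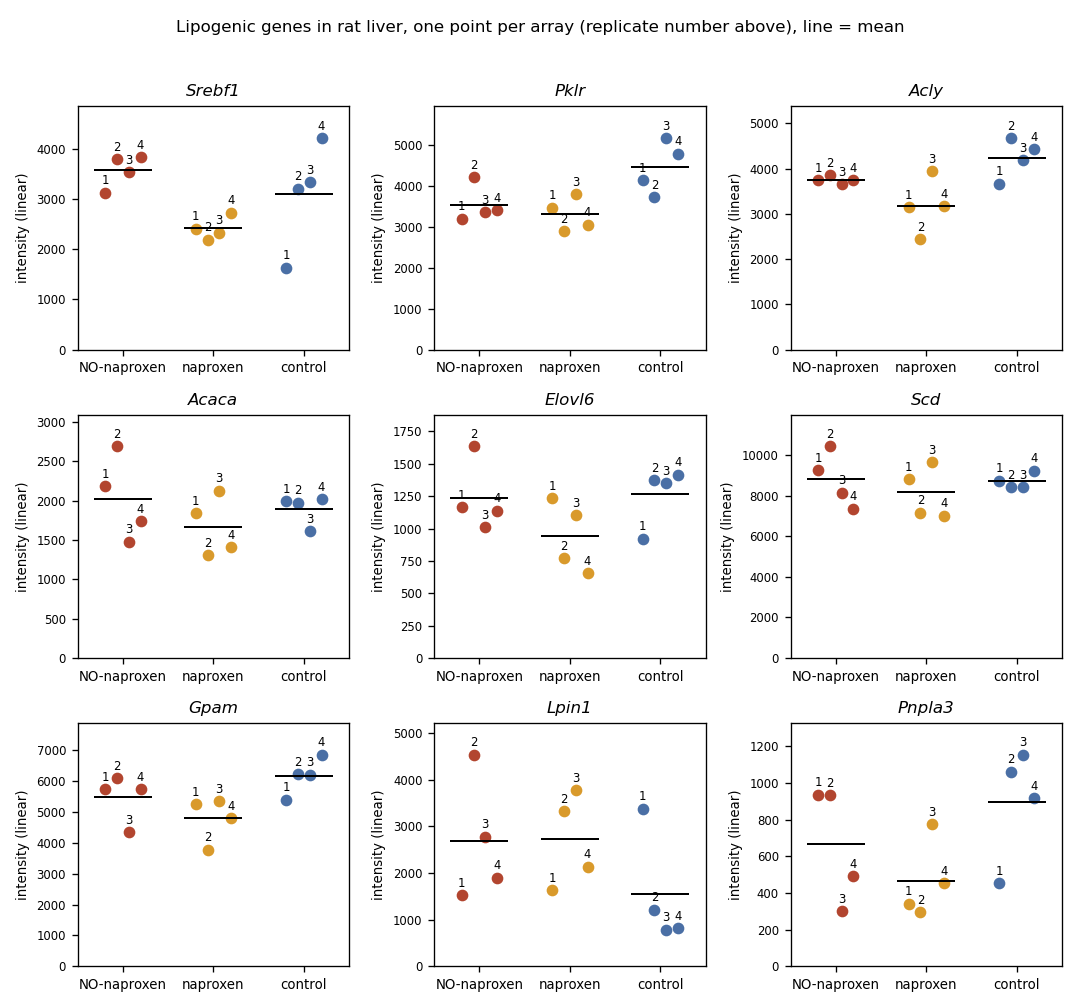
Intensity on a linear axis from 0 for the 9 genes, 1 point per array with its replicate number, groups NO-naproxen, naproxen and control from left to right, line at the group mean. Srebf1 lies higher in all 4 NO-naproxen arrays (3121 to 3829) than in all 4 naproxen arrays (2191 to 2725), and control replicate 1 (1633) lies below both.

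Srebf1, whose product is known to drive most of the enzymes below, was the only one of the 9 genes whose NO-naproxen and naproxen arrays did not overlap. Its intensity was 3121, 3796, 3538 and 3829 in the NO-naproxen livers, 2407, 2191, 2329 and 2725 in the naproxen livers, and 1633, 3207, 3337 and 4212 in the controls. All NO-naproxen arrays lay above all naproxen arrays, and the controls spanned both. The log2 fold change of NO-naproxen over naproxen was 0.56 ± 0.23 (SE; 95% interval 0.07 to 1.05), a 1.48-fold difference at doses that differ by weight. Non-overlap in this direction was found for 0.644% of all 19418 probe sets, and for 1 of the 9 genes. The means on the log2 scale were 11.80 ± 0.14 with NO-naproxen, 11.24 ± 0.13 with naproxen and 11.52 ± 0.58 in controls (SD, n = 4), so that the spread of the controls was wider than the distance to either drug.

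Against the controls the 2 drugs stood on opposite sides for Srebf1, at 0.28 ± 0.23 with NO-naproxen and -0.28 ± 0.23 with naproxen (log2 fold change, SE). Both values turn on control replicate 1. Without it they were 0.00027 and -0.56, and the naproxen arrays, at up to 2725, then lay below all 3 controls, which started at 3207. Without the narrowest arrays, control replicates 3 and 4, they were 0.63 and 0.07, with replicates 1 and 2 as the only controls.

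Pklr, the liver pyruvate kinase that ends glycolysis, and Acly, which cleaves citrate into cytosolic acetyl-CoA, open the chain of enzymes. Pklr measured 3209, 4222, 3367 and 3410 with NO-naproxen, 3472, 2892, 3808 and 3060 with naproxen, and 4145, 3736, 5179 and 4796 in controls. The drug groups lay low and each overlapped the controls through 1 array, with log2 fold changes of -0.33 ± 0.17 and -0.43 ± 0.17 (SE), which were -0.16 and -0.26 without control replicates 3 and 4. Acly measured 3749, 3856, 3650 and 3748 with NO-naproxen, 3144, 2447, 3950 and 3166 with naproxen, and 3668, 4676, 4182 and 4430 in controls. The NO-naproxen livers were closely alike, with an SD of 0.03 log2 units against 0.28 with naproxen, and the log2 fold changes over control were -0.17 ± 0.17 and -0.43 ± 0.17.

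Acaca, the acetyl-CoA carboxylase that makes malonyl-CoA, showed no order of the groups beyond their spread. It measured 2184, 2693, 1481 and 1740 with NO-naproxen, 1839, 1306, 2129 and 1412 with naproxen, and 1995, 1978, 1616 and 2017 in controls. The drug groups each spread on both sides of the controls, and the log2 fold changes over control were 0.06 ± 0.21 and -0.21 ± 0.21 (SE). The first of these was below 0 in 5 of 23 alternatives, down to -0.25 with the arrays' interquartile range as a covariate, and was -0.09 without NO-naproxen replicate 2 and -0.02 without control replicate 3. The second was -0.10 without naproxen replicate 2 and -0.33 without naproxen replicate 3. Scd, the stearoyl-CoA desaturase that makes oleate, was the brightest of the 9 on average. Its intensities lay between 7364 and 10427 with NO-naproxen, 7015 and 9648 with naproxen, and 8423 and 9228 in controls, with 95% intervals of the log2 fold change over control of -0.35 to 0.36 and -0.46 to 0.25.

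Elovl6, which lengthens palmitate to stearate, measured 1164, 1635, 1009 and 1139 with NO-naproxen, 1236, 772, 1103 and 655 with naproxen, and 921, 1376, 1349 and 1417 in controls. The 2 lowest arrays of all 12 were naproxen arrays, and the third was control replicate 1. The log2 fold changes were -0.04 ± 0.23 for NO-naproxen over control, -0.45 ± 0.23 for naproxen over control and 0.41 ± 0.23 for NO-naproxen over naproxen (SE). The first was above 0 in 7 of 23 alternatives, between -0.33 and 0.11 over all of them, and -0.18 without control replicate 1. Without that control the second was -0.59. Without naproxen replicate 4 the second was -0.29 and the third 0.25, and without NO-naproxen replicate 2 the third was 0.27. Gpam, the mitochondrial acyltransferase that starts glycerolipid synthesis, measured 5737, 6087, 4338 and 5727 with NO-naproxen, 5260, 3779, 5337 and 4796 with naproxen, and 5398, 6229, 6210 and 6854 in controls. All naproxen arrays lay below all controls, by a narrow gap of 5337 to 5398. Gpam was the 1 gene of the 9 whose naproxen and control arrays did not overlap, which was so in this direction for 2.40% of all probe sets, and its log2 fold change was -0.37 ± 0.17. The NO-naproxen arrays overlapped the controls, at -0.18 ± 0.17, and at -0.07 without NO-naproxen replicate 3.

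Lpin1 had the widest mean differences from control of the 9 genes and was the only one of them with a mean above control under both drugs. It measured 1521, 4535, 2776 and 1900 with NO-naproxen, 1635, 3325, 3776 and 2134 with naproxen, and 3377, 1217, 782 and 820 in controls. Every drug-fed rat exceeded the other 3 controls, and control replicate 1 exceeded 6 of the 8 drug arrays. The log2 fold changes over control were 0.94 ± 0.43 with NO-naproxen and 1.00 ± 0.43 with naproxen (SE), 1.91-fold for the first. Without control replicate 1 they were 1.40 and 1.47. Without control replicates 3 and 4, the arrays of narrowest spread, they were 0.27 and 0.34, with replicates 1 and 2 as the only controls. With array weights the value of NO-naproxen was 0.50. The drugs did not differ beyond their spread, with a log2 fold change of NO-naproxen over naproxen of -0.07 and a 95% interval of -0.97 to 0.84.

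Pnpla3 codes for a lipase and acyltransferase of the lipid droplet, and SREBP-1 is known to raise it. It measured 936, 932, 301 and 492 with NO-naproxen, 342, 297, 774 and 455 with naproxen, and 452, 1061, 1154 and 916 in controls. NO-naproxen had 2 high and 2 low arrays, 3 of the 4 naproxen arrays were near or below control replicate 1, and the groups overlapped. The log2 fold changes over control were -0.48 ± 0.38 with NO-naproxen and -0.93 ± 0.38 with naproxen (SE), or 1.39-fold and 1.91-fold lower. Without control replicate 1 they were -0.77 and -1.22. Without NO-naproxen replicate 3 the first was -0.16, and without control replicates 3 and 4 the pair was -0.20 and -0.65. NO-naproxen over naproxen gave 0.45 with a 95% interval of -0.35 to 1.25, and 0.77 without NO-naproxen replicate 3 or 0.24 without NO-naproxen replicate 2.

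**Figure D2:**
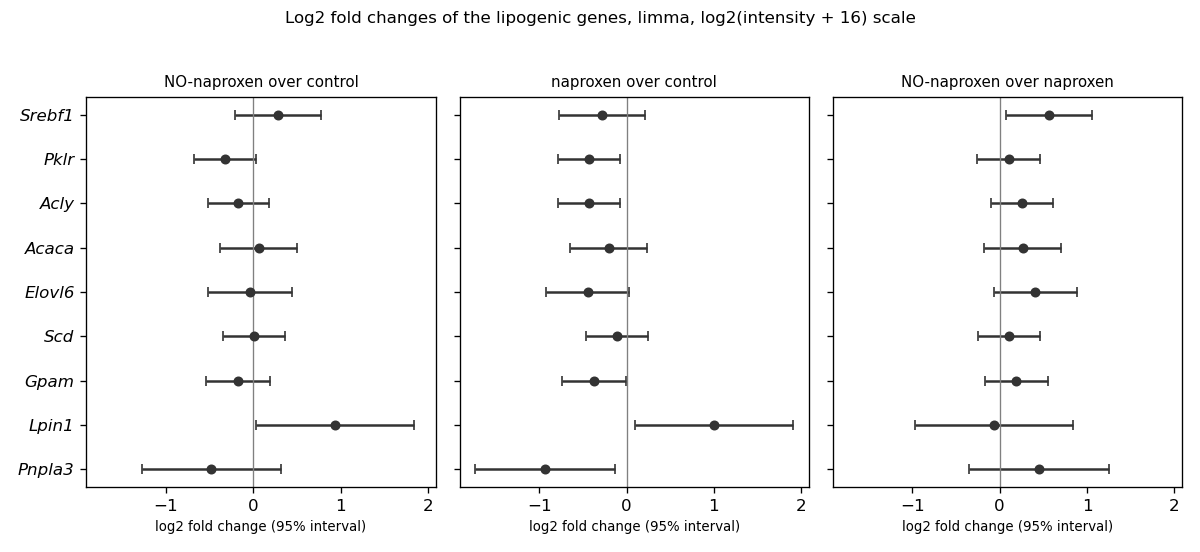
Log2 fold changes with 95% intervals from limma for the 9 genes, on the log2(intensity + 16) scale, in panels for NO-naproxen over control, naproxen over control and NO-naproxen over naproxen. In the first 2 panels Lpin1 is the gene farthest to the right (0.94 and 1.00), and in the third the interval of Srebf1 (0.07 to 1.05) is the only one of the 9 that lies above 0.

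The 9 genes can be set beside all probe sets. With NO-naproxen 4 of the 9 log2 fold changes over control were above 0 and their median was -0.04, while over all probe sets 50.1% were above 0 and the median was 0.00044. With naproxen 1 of the 9, Lpin1, was above 0 and the median was -0.37, against 45.9% and -0.03 over all probe sets. Both comparisons share the 4 control arrays. Over the 12048 probe sets above the olfactory receptor range, as all 9 genes are, the medians were 0.09 with NO-naproxen and 0.05 with naproxen. For NO-naproxen over naproxen 8 of the 9 log2 fold changes were above 0, Lpin1 being the exception, and the median was 0.26, against 64.1% and 0.06 over all probe sets. Median centring moved the median of all probe sets by 0.12 for naproxen over control, and the median of the 9 genes was then -0.26, with 2 above 0, Lpin1 and Scd.

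In the limma fit across all 19418 probe sets none of the 9 genes passed an adjusted p of 0.05 in any comparison (Benjamini-Hochberg). The smallest adjusted p of the 9 was 0.468 for NO-naproxen over control, 0.381 for naproxen over control and 1.00 for NO-naproxen over naproxen. No probe set of the array passed either (0.00% in each comparison), while 10.4% had an unadjusted p under 0.05 for NO-naproxen over control, 12.7% for naproxen over control and 1.92% for NO-naproxen over naproxen. The series' own criterion is an unadjusted p under 0.05 with at least a 1.5-fold change. For NO-naproxen over control it was met by 1 of the 9, Lpin1, upward, against 3.80% of all probe sets, 1.78% upward and 2.02% downward. For naproxen over control it was met by 2 of the 9, Lpin1 upward and Pnpla3 downward, against 5.85% of all probe sets, 0.875% upward and 4.97% downward. For NO-naproxen over naproxen it was met by 0 of the 9, against 0.572% of all probe sets, 0.427% upward and 0.144% downward. The arrays of NO-naproxen and control overlapped for all 9 genes, and were apart for 3.35% of all probe sets.

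Single arrays decided these counts. Lpin1 with NO-naproxen no longer met the criterion without NO-naproxen replicate 2 or 3 or without control replicate 2, 3 or 4, a count of 0 each. With naproxen the count was 0 when naproxen replicate 2 or control replicate 3 was left out. Pnpla3 alone met it, a count of 1, when naproxen replicate 3 or control replicate 4 was left out, and Lpin1 alone when control replicate 2 was. Without naproxen replicate 1 it was 2, Elovl6 and Lpin1, and without control replicate 1 it was 3, Elovl6, Lpin1 and Pnpla3. In NO-naproxen over naproxen the count was 1 without NO-naproxen replicate 1 or naproxen replicate 4 (Srebf1) and 1 without NO-naproxen replicate 3 (Pnpla3). These comparisons are among those that were known when the genes were chosen, so nothing is read from the shares.

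**Figure D3:**
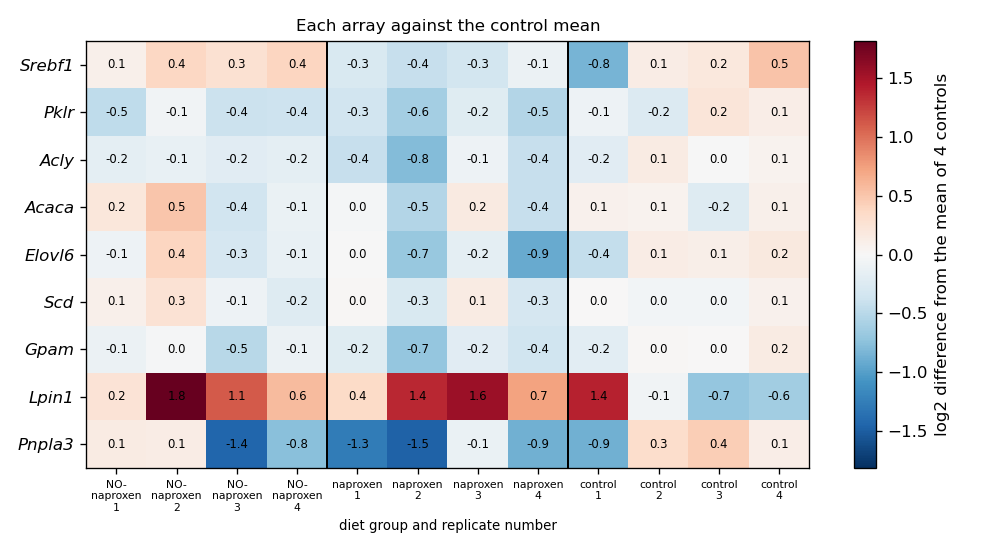
Log2 level of each gene on each of the 12 arrays minus the mean of the 4 controls, groups NO-naproxen, naproxen and control from left to right, red above and blue below the control mean. Lpin1 is above the control mean on all 8 drug arrays and on control replicate 1, and Srebf1 is above it on all 4 NO-naproxen arrays and below it on all 4 naproxen arrays.

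Some of the enzymes varied together from array to array. Over the 12 arrays, centred on their medians, Acaca and Scd had the highest correlation of any pair (Pearson's r = 0.94, Spearman's rho = 0.97), followed by Acly and Gpam (r = 0.88, rho = 0.93). These are descriptions, since the arrays share diets and array-wide spread. Lpin1 stood outside this pattern, with r between -0.35 (Pnpla3) and 0.31 (Scd) to the other 8. Srebf1 was nearest to Elovl6 by r (0.59, rho = 0.58) and to Gpam by rho (0.67, r = 0.48). Of the 9, Acaca had the highest r with the array's interquartile range (r = 0.52, rho = 0.48), followed by Lpin1 (r = 0.42, rho = 0.38). Srebf1 and Gpam had the weakest r (-0.04 and 0.03, rho = -0.19 and -0.07).

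Among 9824 named genes above the olfactory receptor range and outside the list, those with the pattern nearest to Lpin1 over the 12 arrays were Gabarapl1 (r = 0.96, rho = 0.94), Il6r (0.96 and 0.93), Zbtb16 (0.95 and 0.93) and Anp32b (0.95 and 0.94). Gabarapl1 codes for an autophagy protein, Il6r for the interleukin 6 receptor and Zbtb16 for a zinc finger repressor. Zbtb16 measured 528, 1551, 738 and 692 with NO-naproxen, 606, 1267, 1485 and 1010 with naproxen, and 776, 222, 174 and 181 in controls, where control replicate 1 was again the high one. The genes nearest to Pnpla3 were Mocs3 (r = 0.88), Srpx2 (0.84), Otub2 (0.81) and Aldh3a2 (0.80), and those nearest to Srebf1 were Tert (0.84), Slc29a1 (0.80), Ttc7a (0.78) and Abtb3 (0.78). The likeness to Srebf1 was weaker than that to Lpin1.

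The rest of the pathway was read from lists of genes outside the 9. No gene of these lists passed an adjusted p of 0.05 in any comparison in limma. In glycerolipid synthesis, 10 of 12 genes were measured, and Lpin2 and Lpin3, the other lipins, both had means above control under each drug. Lpin2 had intensities of 893, 1569, 991 and 1260 with NO-naproxen, 1273, 1173, 1423 and 861 with naproxen, and 713, 729, 567 and 678 in controls. All NO-naproxen arrays lay above all 4 controls, which was so for 388 of all 19418 probe sets, and so did all naproxen arrays, which was so for 406 (2.09%). Its log2 fold changes were 0.77 ± 0.20 and 0.78 ± 0.20 (SE), with adjusted p = 0.468 and 0.381 in limma. Over 23 alternatives the 2 values ranged between 0.55 and 0.89 and between 0.58 and 0.93.

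Lpin3 measured 255, 306, 197 and 227 with NO-naproxen, 235, 179, 186 and 216 with naproxen, and 159, 190, 170 and 141 in controls. The NO-naproxen arrays lay above all controls, and the naproxen arrays overlapped them. The log2 fold changes were 0.52 ± 0.17 and 0.28 ± 0.17 (SE), which were 0.30 and 0.08 with the arrays' interquartile range as a covariate. Mogat2, a monoacylglycerol acyltransferase, lay within the olfactory receptor range, with log2 fold changes of 0.89 ± 0.27 for NO-naproxen over control and 0.78 ± 0.27 for NO-naproxen over naproxen. Its intensities were 60.9, 67.9, 68.3 and 106 with NO-naproxen, 85.1, 32.8, 17.5 and 29.5 with naproxen, and 41.1, 22.6, 34.5 and 34.5 in controls, dim on every array. In this list 2 genes met the series' criterion upward with NO-naproxen, 1 with naproxen and 1 in NO-naproxen over naproxen, and none downward. Upward shares of all probe sets were 1.78%, 0.875% and 0.427% in the same order. Mogat2 is the only one in NO-naproxen over naproxen, so that count rests on a dim probe set. It is also 1 of the 2 with NO-naproxen. Lpin2 is the other of these 2 and the only one with naproxen. The list's median log2 fold changes were 0.29, 0.15 and 0.13. Of the 10 measured genes, 8 had means above control under each drug, and Gpd1 and Mogat1 lay below. Gpd1 had -0.20 ± 0.15 with NO-naproxen and -0.33 ± 0.15 with naproxen. All its naproxen arrays lay below all controls, as for 2.40% of all probe sets. Mogat1, within the olfactory receptor range, had -0.33 ± 0.28 and -0.46 ± 0.28.

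In the list of lipid droplet and lipolysis genes, 9 of 15 were measured, with median log2 fold changes of 0.02, -0.13 and 0.04 in the same order. G0s2, an inhibitor of the triglyceride lipase ATGL, measured 599, 663, 636 and 477 with NO-naproxen, 469, 575, 461 and 643 with naproxen, and 572, 866, 1003 and 891 in controls. Each drug group overlapped the controls through control replicate 1, and the other controls all exceeded the drug arrays. The log2 fold changes were -0.46 ± 0.20 and -0.60 ± 0.20 (SE). The second was the only one of this list to meet the series' criterion, against 4.97% of all probe sets downward with naproxen. Without control replicate 1 the fold changes of G0s2 were -0.63 and -0.77. Without control replicates 3 and 4 they were -0.25 and -0.39. Plin5 and Plin2, coats of the droplet, had values of -0.38 ± 0.18 and -0.10 ± 0.15 with NO-naproxen and -0.43 ± 0.18 and -0.27 ± 0.15 with naproxen.

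Regulators of SREBP-1, ChREBP and the LXR receptors (14 of 15 measured) had medians of 0.18, 0.12 and 0.10, and none met the series' criterion in any comparison. Mbtps2, the protease that completes the release of SREBPs, had log2 fold changes of 0.55 ± 0.25 with NO-naproxen and 0.23 ± 0.25 with naproxen (SE), the receptor partner Rxra of 0.39 ± 0.19 and 0.22 ± 0.19, and Nr5a2 of 0.32 ± 0.17 and 0.23 ± 0.17. Without control replicates 3 and 4 the values of Mbtps2 were 0.16 and -0.16. Genes around acetyl-CoA carboxylase (9 of 10 measured) had medians of 0.19, 0.11 and 0.06 and none met the criterion. Thrsp, a lipogenic cofactor known to follow carbohydrate feeding, had -0.13 ± 0.18 and -0.26 ± 0.18, and the kinase subunits Prkaa1 and Prkag1 had 0.38 ± 0.25 and 0.26 ± 0.19 with NO-naproxen and 0.18 ± 0.25 and 0.24 ± 0.19 with naproxen.

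Genes that supply acetyl-CoA and NADPH (7 of 10 measured) had medians of 0.05, 0.03 and -0.02, and none met the criterion. Me1, the malic enzyme that makes NADPH for lipogenesis, measured -0.14 ± 0.17 with both drugs (log2 fold change over control, SE), Tkt -0.21 ± 0.16 and -0.11 ± 0.16, and Taldo1 0.21 ± 0.17 and 0.24 ± 0.17. In the list of elongation, desaturation and activation (11 of 14 measured) the medians were 0.10, -0.01 and 0.10 and none met the criterion. Elovl2, an elongase of polyunsaturated fatty acids, had 0.36 ± 0.22 and 0.14 ± 0.22, Hsd17b12 0.25 ± 0.17 and 0.26 ± 0.17, and Elovl3, within the olfactory receptor range, -0.72 ± 0.37 and -0.53 ± 0.37.

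**Figure D4:**
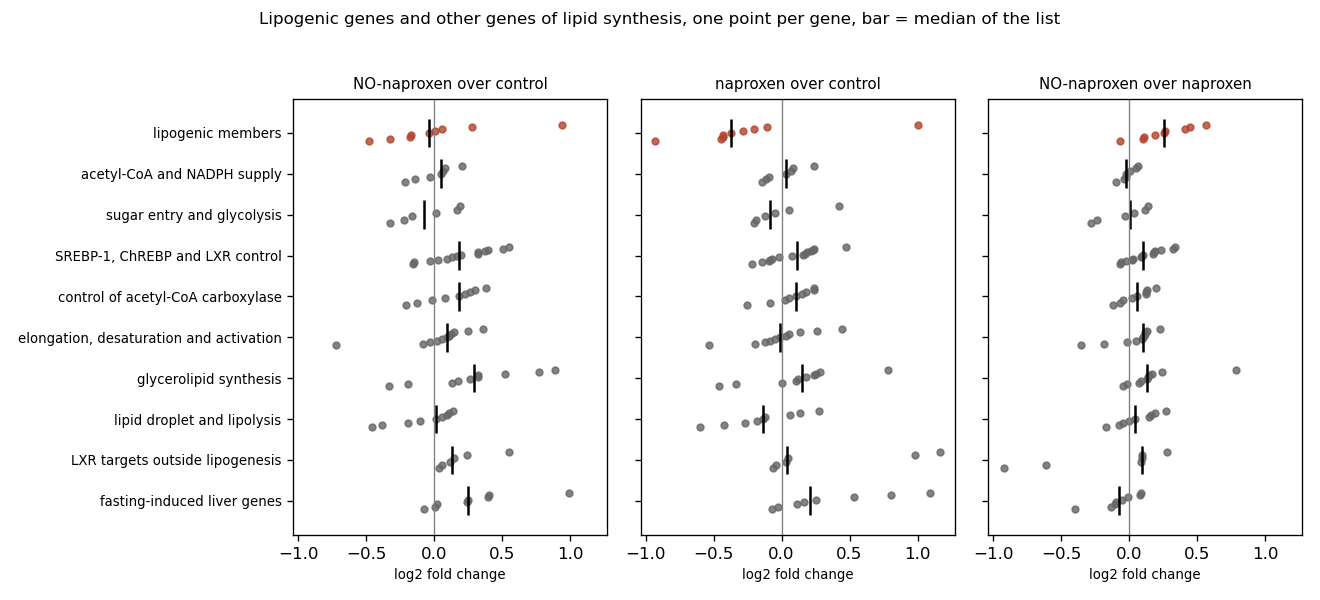
Log2 fold changes of the 9 lipogenic genes (red, top row) and of 80 measured genes in 9 lists around them (grey), 1 point per gene, bar at the list's median, in panels for NO-naproxen over control, naproxen over control and NO-naproxen over naproxen. The median of the 9 lies at -0.37 with naproxen and at 0.26 in NO-naproxen over naproxen, where the medians of the other 9 lists lie between -0.07 and 0.13.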

How the data were processed

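Liver RNA was depleted of ribosomal RNA, labelled with biotin and hybridised to whole-transcript arrays, per the labels' protocols. The deposited intensity values are linear, 1 per probe set and array, from Affymetrix Expression Console 1.1.1 with build rn4, per the submitters' processing notes; summary method, normalization, slides and scan dates were not given in the sources used here. After adding 16, log2 values of all 12 arrays entered 1 fit of limma 3.58.1 (R 4.3.3, lmFit and eBayes, 2-sided, Benjamini-Hochberg over 19418 probe sets), with the 3 diets as groups, tested on simulated data. As the deposited intensities have no read depth, the number of arrays limits the precision. Genes and lists were chosen with earlier results of these data known. Named genes were the 9 found, up to 3 per list with the smallest unadjusted p in any comparison, and the 4 nearest in pattern to Srebf1, Lpin1 and Pnpla3. Further genes of the glycerolipid and fasting lists are named beside these. Promoter windows came from RefSeq, build GRCr8. Figures were drawn with matplotlib 3.10.9. Alternatives covered the added constant, normalization, filter, spread estimate, groups fitted, array weights and spread, the replicate block, and each array left out. Arrays are labelled biological replicates, and p-values measure the spread between them.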

Additional observations from a re-analysis of the deposited data

Results flagged for a closer look

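Srebf1 lay above the control mean on all 4 NO-naproxen arrays and below it on all 4 naproxen arrays, with a log2 fold change of 0.5623 for NO-naproxen over naproxen. In the direct contrast of the limma fit the adjusted p was 1.00. That control mean includes control replicate 1, and without it the NO-naproxen difference from control was 0.00027.

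In 6 of 108 groups of 4 arrays, 1 array lay far from the other 3 on the log2 scale, and chance flags about 1 in 20 such groups. Acaca measured 10.67 in control replicate 3, against 10.96 to 10.99 in the other controls. Elovl6 measured 9.872 in control replicate 1, against 10.41 to 10.48, and Slc2a2, the glucose transporter of hepatocytes, measured 12.24 in the same array, against 11.87 to 11.92. Irs2, an insulin receptor substrate, measured 6.091 in control replicate 3, against 6.82 to 6.939. Elovl3 measured 6.105 in NO-naproxen replicate 3, against 4.566 to 4.738 in the other NO-naproxen arrays, and Plin2 measured 11.36 in NO-naproxen replicate 2, against 11.12 to 11.16.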

How the results depend on the processing

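None of the 9 genes passed an adjusted p of 0.05 in limma in any comparison under any of the 23 alternatives run for each, where the smallest adjusted p was 0.116 for NO-naproxen over control, 0.110 for naproxen over control and 0.779 for NO-naproxen over naproxen. The count past the series' criterion changed more easily. With NO-naproxen over control it was 1 and became 0 with an added constant of 1 or 64, after quantile normalization, with a trended and robust spread, with only the 2 groups compared, with array weights and at 2-fold, and lay between 0 and 1 with each array left out. It stayed at 1 but for another gene without the 2 arrays of narrowest spread (Srebf1 in place of Lpin1) and with the arrays' interquartile range as a covariate (Pnpla3 in place of Lpin1). With naproxen over control it was 2 and became 1 with a constant of 1, after median centring, with a trended and robust spread, with array weights and at 2-fold, became 0 without the 2 arrays of narrowest spread, and lay between 0 and 3 with each array left out; it stayed at 2 with the interquartile range as a covariate, with Elovl6 in place of Lpin1. For NO-naproxen over naproxen it was 0, became 1 with array weights and lay between 0 and 1 with each array left out. The cause was not tested. Same-numbered arrays of different diets had deviations correlated between -0.38 and 0.48, not every array was nearest its own number, and the numbers were taken as names only; with the replicate number as a block the counts were 1, 2 and 0. The mean of several probe sets was not run, since each gene had 1. The 4 arrays per diet limit what can be detected.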

Other observations

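Genes that fasting is known to raise in liver were measured beside the lipogenic ones, 8 of 9 listed, with median log2 fold changes of 0.25 for NO-naproxen over control, 0.21 for naproxen over control and -0.07 for NO-naproxen over naproxen. The series' criterion was met upward by 1 with NO-naproxen (Ppargc1a), against 1.78% of all probe sets. With naproxen it was met upward by 2 (Ppargc1a and Igfbp1), against 0.875%. Ppargc1a, which codes for the coactivator PGC-1 alpha, measured 387, 776, 393 and 535 with NO-naproxen, 515, 504, 745 and 432 with naproxen, and 363, 343, 127 and 218 in controls. All NO-naproxen arrays lay above all 4 controls, as for 388 of 19418 probe sets, and so did all naproxen arrays, as for 406, with log2 fold changes of 0.99 ± 0.30 and 1.09 ± 0.30 (SE) and adjusted p = 0.468 and 0.381 in limma. With the arrays' interquartile range as a covariate the values were 0.59 and 0.72, and without the 2 arrays of narrowest spread 0.49 and 0.59. Igfbp1, an insulin-repressed secreted protein, measured 1540, 2666, 2320 and 2436 with NO-naproxen, 3559, 2540, 3268 and 2380 with naproxen, and 3505, 1673, 777 and 1641 in controls. As with Lpin1, control replicate 1 was the high control, and the log2 fold changes were 0.40 ± 0.33 and 0.80 ± 0.33. Without control replicate 1 they were 0.76 and 1.16, without control replicate 3 they were 0.04 and 0.44, and without control replicates 3 and 4 they were -0.14 and 0.26. Irs2 had 0.40 ± 0.25 and 0.53 ± 0.25, and 0.21 and 0.34 without control replicate 3. The other measured genes of this list overlapped between groups. Pck1 had 0.25 ± 0.26 and 0.17 ± 0.26, and Pdk4 0.24 ± 0.19 and 0.25 ± 0.19. G6pc1 had -0.07 ± 0.20 and -0.02 ± 0.20, Fgf21 0.02 ± 0.19 and -0.07 ± 0.19, and Angptl4 0.01 ± 0.19 and 0.11 ± 0.19.

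Targets of the LXR receptors outside lipogenesis (6 of 7 measured) had medians of 0.13, 0.04 and 0.09 in the same order. Of these only Abcg5 met the series' criterion, upward with naproxen, against 0.875% of all probe sets. Abcg5, which forms the hepatocyte's sterol exporter with Abcg8, stood at 0.55 ± 0.41 and 1.17 ± 0.41 on the log2 scale over control (SE), Abcg8 at 0.06 ± 0.66 and 0.98 ± 0.66, and the cholesterol exporter Abca1 at 0.24 ± 0.25 and -0.04 ± 0.25. Abcg5 measured 167, 387, 665 and 177 with NO-naproxen, 718, 294, 561 and 386 with naproxen, and 149, 382, 126 and 207 in controls, so the groups overlapped. Without NO-naproxen replicate 3 the NO-naproxen value of Abcg5 was 0.18 and that of Abcg8 -0.57, and Abcg8 was below 0 in 6 of 23 alternatives. Without control replicate 3 the naproxen value of Abcg8 was 0.57. The value of Abca1 was -0.20 with NO-naproxen with the arrays' interquartile range as a covariate, and 0.13 with naproxen without naproxen replicate 2. Of the genes of sugar entry and glycolysis 6 of 10 were measured, with medians of -0.07, -0.08 and 0.0044, and Pfkfb1 had 0.19 ± 0.29 and 0.43 ± 0.29, Gpi -0.22 ± 0.16 and -0.19 ± 0.16, and Slc2a2 -0.16 ± 0.17 and -0.20 ± 0.17.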
